A study of Mus musculus with 15 samples.

Results

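The comparison covers cultured small cell lung carcinoma (SCLC) cells and cultured large cell neuroendocrine carcinoma (LCNEC) cells of the mouse, in 6 of the 15 RNA-seq samples of the series. The 6 samples were chosen by their labels, 3 of 57SCLC_cell and 3 of 46LCNEC_cell, and all genes of the deposited matrix were used. Both groups were grown in culture, unlike the allograft tumors and normal lungs that make up the rest of the series. Both lines came from QKO mice, whose engineered alleles include floxed Rb1 and Trp53 and a null allele of Rbl1, and both are therefore meant to lack the same tumor suppressor genes.

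The 57SCLC line was established from a lung tumor induced by an adenovirus with Cre under the keratin K5 promoter (Ad-K5cre), grew in suspension and was sampled at passage 11 from flasks A, B and C. The 46LCNEC line was established from a lung tumor induced by an adenovirus with Cre under the CMV promoter (Ad-CMVcre), grew as an adherent monolayer that is detached with trypsin, and was sampled at passage 17 from dishes A, B and C. Each group is thus 1 line from 1 tumor, and the p-values measure only the spread between flasks or dishes of that line. Tumor type, individual tumor, virus, mode of growth, passage and, as far as the sample names carry dates, day of collection all differ together between the groups and cannot be told apart.

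SCLC and LCNEC are the high-grade neuroendocrine carcinomas of the lung. Neuroendocrine cells store peptides and amines in dense-core granules, which hold granins, prohormone convertases and their products, and release them with the same machinery that empties synaptic vesicles in neurons. Lineage factors such as Insm1 and Nkx2-1 keep this program active, whereas the repressor Rest silences neuronal genes in other cells. Loss of this program in SCLC is known to go with Notch, Yap1 or Myc activity and with mesenchymal features, and adherent growth with integrin and Hippo pathway gene expression.

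The values are normalized read counts, that is, reads per gene divided by 1 factor per sample. The reads recovered from them ranged from 37368046 to 44876572 per 57SCLC_cell sample and from 24176296 to 35434251 per 46LCNEC_cell sample. Flask C stood apart from its sister flasks. In it, 421 of the 12979 genes with a line mean of at least 50 normalized counts lay over 2-fold from the mean of flasks A and B, 381 of them above it, against 3 to 17 of 12643 genes in the 46LCNEC dishes. Its log2 values correlated across genes at 0.974 and 0.975 with flasks A and B, which correlated at 0.998 with each other, and the 18S rRNA gene Rn18s-rs5 took 4.63% of its reads against 1.08% and 1.15% in flasks A and B and 2.49% to 3.21% in the dishes. Flasks A and B were the pair with the least difference, at a chi-square of 2.80 per gene between their reads, where counting error alone gives 1, against 144 and 127 for the pairs with flask C and 7.28 to 22.8 for the dishes. They were kept as separate samples.

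Some genes that cells use widely had few or no reads in the matrix. Ribosomal protein genes took 0.323% to 0.529% of the reads, processed pseudogenes took 2.67% to 3.40%, and 3677 of 21627 protein-coding genes, among them B2m, Grp, Neurod1 and Sstr2, are listed at 0 in all 15 samples including normal lung. For such genes a 0 says nothing about expression, and levels of different genes are not compared here. A floor of 3 reads, 1.56 to 3.31 normalized counts depending on the sample, was taken as the limit of detection, and it covers counting error only.

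Among 16920 genes that reached 10 normalized counts in 3 or more samples, 4043 were higher in 57SCLC_cell and 3756 were higher in 46LCNEC_cell at an adjusted p of at most 0.01 (limma, Benjamini-Hochberg) and a change of at least 2-fold. These calls made up 46.1% of the genes tested, 23.9% in the 57SCLC direction and 22.2% in the 46LCNEC direction, and the median log2 fold change over all genes tested was 0.00. The counts without flask C were 4094 and 4020. A gene on in 1 line only entered the test through this line and then had to differ, so the counts over list members given below are descriptions to be read against these background shares. Log2 fold changes are 57SCLC_cell over 46LCNEC_cell on log2(normalized count + 1), so that positive values are higher in 57SCLC_cell, and means are given with the SD of 3 samples. Genes named beyond the rule stated in the methods were picked from the lists after their values had been seen.

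The genes with the largest changes toward 57SCLC_cell included Car10, a carbonic anhydrase-related protein (12009 ± 4431 normalized counts against 0.368 ± 0.637, log2 fold change 13.13), and Tcerg1l, related to a transcription elongation regulator (10094 ± 3224 against 0.256 ± 0.444, 12.98). Rimbp2, a presynaptic active zone protein, and Ptprz1, a receptor phosphatase of the nervous system, had no read in any 46LCNEC dish and were at least 2504-fold and at least 2178-fold higher in 57SCLC_cell, against the floor of 3 reads per library. Toward 46LCNEC_cell the largest changes were in genes of the extracellular matrix, Lox (-14.49), Sparc (-14.02), Col1a2 (-13.98) and Fn1 (-13.89), with the chromatin factor Hmga2 (-13.94) and the cytochrome P450 gene Cyp1b1 (-13.98). The plot of list members shows how the lists fixed for this comparison fell on either side.

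**Figure D1:**
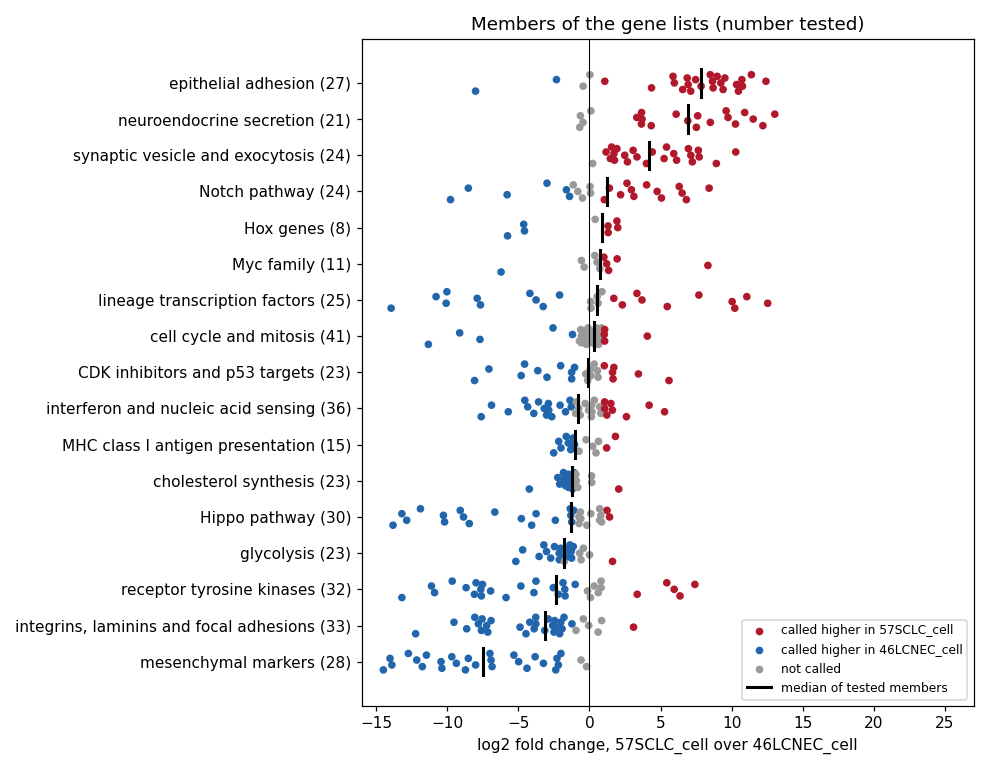
Log2 fold change of 57SCLC_cell over 46LCNEC_cell (x axis, limma on log2(normalized count + 1)) for each tested member of 17 gene lists (rows, with the number tested), colored by call, with the median of each list as a black line. Medians ran from -7.50 for mesenchymal markers to 7.85 for epithelial adhesion, and most cell cycle genes sit uncalled near 0.

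Targeted genes were examined first. A gene-level count includes exons outside a deleted part and does not test the deletion. Rb1, the retinoblastoma gene, had 229, 236 and 777 normalized counts in flasks A, B and C and 66.6, 90.5 and 99.9 in the dishes. It was higher in 57SCLC_cell at a log2 fold change of 2.03 (SE 0.45, adjusted p = 0.00382, limma) and at 1.45 without flask C, but the call was lost when any 1 of the dishes was left out (adjusted p of 0.0138 to 0.0236, limma). Rbl1, its relative p107, stood at 2881 ± 247 against 1619 ± 112 (0.83) and Trp53 at 997 ± 70.1 against 1465 ± 72.0 (-0.56), and neither reached a 2-fold change, although Rbl1 did with scaling to library size (1.06). Xist is listed at 0 in all 15 samples of the series and checks nothing, whereas the Y-linked genes Ddx3y, Uty, Kdm5d and Eif2s3y have reads elsewhere in the series and had none in the 6 samples of either line.

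The labels were then set against defining markers. In 57SCLC_cell, 8 of the 9 tested neuroendocrine markers were called higher. In 46LCNEC_cell, Chga (2.31 to 6.62 normalized counts), Calca (1.54 to 6.62), Insm1 (1.54 to 10.3), Dll3 and Chgb lay at or near the floor, and Syp, the synaptic vesicle protein synaptophysin, had 10.8 to 15.5. The exception was Ncam1, the adhesion molecule CD56, which had 28614, 29684 and 31510 normalized counts in the dishes and 4598, 4291 and 6449 in the flasks. It was higher in 46LCNEC_cell at a log2 fold change of -2.57 (SE 0.15, adjusted p = 1.5e-06, limma). Uchl1, a neuronal deubiquitinase, kept 734 ± 70.5 in the dishes against 9624 ± 1770 in the flasks. At the RNA level, most of these markers were thus far lower in the line labelled LCNEC than in 57SCLC_cell, and the line is named here by its label.

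Markers of other cell types were read in the same way. Of 10 fibroblast markers, 8 were tested and 7 were higher in 46LCNEC_cell, with a summed level of 85370 to 96343 normalized counts in the dishes against 116 to 152 in the flasks. Col1a1 (20963 ± 1332), Col1a2 (50209 ± 3865), Col3a1, Postn and Pdgfrb carried this sum, whereas Dcn had a mean of 11.1 and Lum of 0.736 in the dishes. The same dishes held Nkx2-1, the lung epithelial factor, at 2516 ± 330 and Krt19, a simple epithelial keratin, at 6902 ± 512. The part that cells of another type may have in the values of the dishes was not tested, and in such bulk samples fewer cells of a type and less RNA per cell cannot be told apart. Leukocyte markers summed to 628 to 675 in the dishes and 255 to 282 in the flasks, with the macrophage marker Cd68 at means of 320.4 and 240.3 and Ptprc, which encodes CD45, at a mean of 2.50 and 0.174. Endothelial markers summed to 401 to 480 and 101 to 143, with Cdh5 and Tie1 at or under the floor in both lines. Alveolar markers summed to 1421 to 1591 in the dishes, nearly all from the water channel Aqp5, and to 141 to 168 in the flasks. Basal airway markers summed to 113 to 161 and 7.3 to 11.5, with Trp63, the basal cell factor p63, at means of 6.34 and 3.96. Club cell markers summed to 50.7 to 80.0 in the dishes and 1141 to 1909 in the flasks, nearly all from the aldehyde dehydrogenase Aldh1a1, with the club cell secretoglobin Scgb1a1 at means of 5.74 and 11.34. Ciliated cell markers summed to 537 to 597 and 764 to 873, and the ciliogenesis factor Foxj1 was higher in the flasks (357 against 21.7, log2 fold change 4.12).

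Most neuroendocrine secretion genes were higher in 57SCLC_cell. At or under the floor were 12 of the 28 listed genes in 46LCNEC_cell and 3 in 57SCLC_cell. Both counts hold Grp, Sstr2 and Sst, and the 12 also hold Th, Nts and Gal, all of them too low to test. Of 28 listed genes, 21 were tested, 17 were higher in 57SCLC_cell and none was higher in 46LCNEC_cell, with a median log2 fold change of 6.91. Calca, which encodes the peptides calcitonin and CGRP, had 35267, 35302 and 43053 normalized counts in the flasks and 3.75, 6.62 and 1.54 in the dishes (log2 fold change 13.03, SE 0.35, adjusted p = 2.45e-08, limma). Pcsk1, the convertase that cuts prohormones in granules, had 10067, 10072 and 9620 against 1.88, 0 and 2.31 (12.19). Every flask lay far above every dish for both genes, which were named for their large differences.

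The granins Chga (10.91), Chgb (9.61), Scg2 (11.51) and Scg3 (10.27), which pack the granules, and the second convertase Pcsk2 (9.74) showed differences of the same order. Ddc, the decarboxylase that makes dopamine and serotonin, stood at 3243 against 16.6, and the amine transporter Slc18a1 at 312 against 0.825. The 4 tested members that were not called were Ptprn (6368 ± 349 against 5941 ± 177), a granule membrane protein, Cpe (4563 against 6248) and Pam (2094 against 3231), enzymes that finish peptide hormones, and the amine transporter Slc18a2 (267 against 425). Of the other listed genes, Grp and Sstr2 are listed at 0 in all samples of the series, and Th, Tph1, Nts, Sst and Gal were too low to test in either line.

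Promoter sequences of Pcsk1 and Scg2 are shown because both genes were among the strongest of the list and hold the cAMP response element, the letters TGACGTCA (the same on both strands), close to the start. Each sequence runs 5′ to 3′ along the gene's strand over 150 bases, from 125 bases before the RefSeq gene start to 25 bases after it, and was placed in GRCm39 by a single exact match. Capitals mark the cAMP response element and, in Scg2, also the letters GGTGCTGAA, the reverse complement of TTCAGCACC, the first part of the RE1 motif bound by Rest.
Pcsk1, chr13:75237851-75238000, plus strand: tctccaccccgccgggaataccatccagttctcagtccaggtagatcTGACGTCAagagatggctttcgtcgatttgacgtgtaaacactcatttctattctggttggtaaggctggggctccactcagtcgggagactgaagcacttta
Scg2, chr1:79417719-79417868, minus strand: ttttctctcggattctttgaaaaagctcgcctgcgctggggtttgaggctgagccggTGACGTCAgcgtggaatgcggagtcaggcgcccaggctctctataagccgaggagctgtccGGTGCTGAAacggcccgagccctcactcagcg
The cAMP response element starts 78 bases before the gene start in Pcsk1 and 68 in Scg2. RefSeq promoters of 300 bases were held for 23 of the 28 listed genes, and 8 of these 23 (Cartpt, Chgb, Pcsk1, Scg2, Slc18a2, Sst, Sstr2 and Th) contained the 8 letters, against 2.03% of all 27025 genes with a promoter in the table. Of these 8, Cartpt, Chgb, Pcsk1 and Scg2 were higher in 57SCLC_cell, Slc18a2 was not called, and Sst, Sstr2 and Th were too low to test. The motif did not mark genes higher in 57SCLC_cell in general. Of 392 tested genes that hold it, 23.2% were higher in 57SCLC_cell, against 23.9% of all 11782 tested genes with a promoter in the table. The share higher in 46LCNEC_cell was 16.3%, below the 22.1% of all these genes.

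Genes for synaptic vesicles and exocytosis, the machinery that docks and fuses granules, pointed the same way. Of 24 tested, 23 were higher in 57SCLC_cell, none was higher in 46LCNEC_cell and 1 was not called, with a median log2 fold change of 4.21. The calcium sensor Syt1 had 4903, 4600 and 6865 normalized counts in the flasks and 4.69, 14.3 and 14.6 in the dishes (log2 fold change 8.92, SE 0.39, adjusted p = 2.72e-07, limma). Sv2b, a vesicle glycoprotein, had 1629, 1655 and 2741 against 2.81, 0 and 0 (10.28). Snap25, a SNARE protein of the plasma membrane, stood at 3407 ± 518 against 27.4 ± 10.4 (6.95). Flask C was the highest of the flasks for all 3 genes. Differences were smaller for widely used members, such as the vesicle SNARE Vamp2 (1.47) and the syntaxin Stx1a (1.56).

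**Figure D2:**
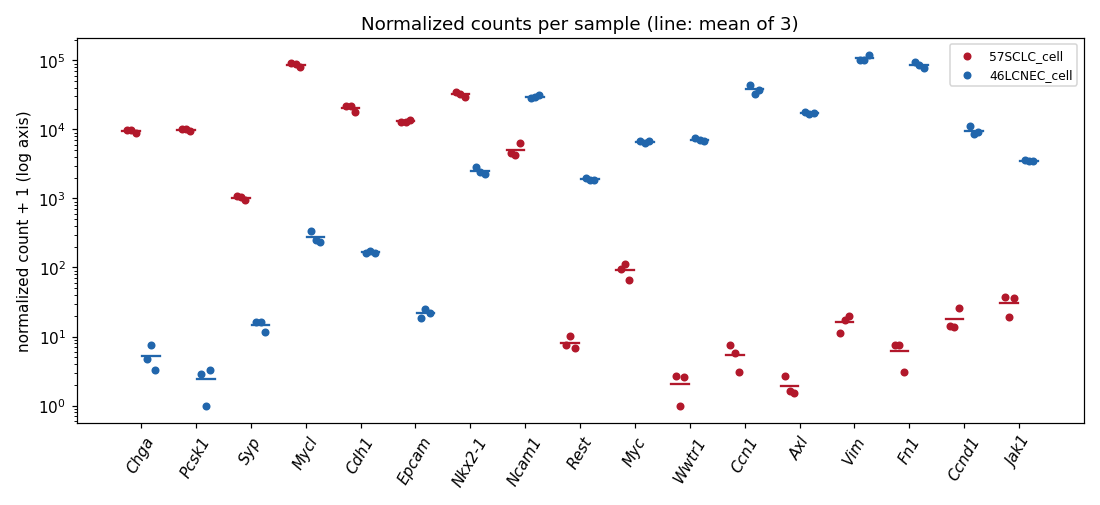
Normalized counts + 1 on a log axis in each of the 3 flasks of 57SCLC_cell (red) and 3 dishes of 46LCNEC_cell (blue) for 17 genes named in the text, with the mean of each group as a line. Chga, Pcsk1, Syp, Mycl, Cdh1 and Epcam lie 1 to 4 decades higher in the flasks, Nkx2-1 about 1, and the genes from Ncam1 on lie higher in the dishes.

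Lineage transcription factors split evenly. Of 25 tested, 10 were higher in each line and 5 were not called, with a median log2 fold change of 0.54. Insm1, a zinc finger factor of neuroendocrine differentiation, had 39944, 36474 and 26639 normalized counts in the flasks and 10.3, 5.52 and 1.54 in the dishes (log2 fold change 12.53, SE 0.48, adjusted p = 1.43e-07, limma). St18 (11.06), Myt1 (10.22) and Myt1l (7.69), the 3 members of the Myt1 family of neural repressors, were all higher in 57SCLC_cell, as were Pou3f4 (10.03) and Prox1 (5.47). The lung and foregut factors Nkx2-1 (32455 ± 2749 against 2516 ± 330, log2 fold change 3.69), Foxa1 (3.34) and Foxa2 (1.71) were also higher there, but were far above the floor in 46LCNEC_cell too. Toward 46LCNEC_cell, Hmga2 had 16736, 20683 and 17484 in the dishes and 0.545, 0 and 0 in the flasks (-13.94), followed by Sox9 (-10.78), a factor of progenitor cells, Runx1 (-10.07), Gata6 (-7.66) and Nfia (-4.19). Nfib, its relative, was not called (11220.3 against 10509.9). Sox2, Neurod1 and Atoh1 are listed at 0 in all samples of the series.

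Rest, the repressor of neuronal genes, had 6.55, 9.05 and 5.73 normalized counts in the flasks and 1947, 1878 and 1874 in the dishes. The log2 fold change was -7.89 (SE 0.18, adjusted p = 1.29e-08, limma). The letters TTCAGCACC of the RE1 motif occurred on either strand in 122 of 32851 RefSeq promoters (0.371%). Of 57 tested genes with such a promoter, 26 (45.6%) were higher in 57SCLC_cell and 5 (8.77%) were higher in 46LCNEC_cell, against 23.9% and 22.1% of all 11782 tested genes with a promoter in the table. The 26 included Scg2, the potassium channel Kcnh6 (9.72), the Notch-binding receptor Dner (8.94), the glutamate receptor Grm2 (6.84), the active zone protein Unc13a (4.01) and Syn1 (1.17). They also included Efs (6.80) and Serpinb6c (5.16). The 5 were Tph2 (-3.12), Grip2 (-2.22), Trim26 (-1.92), Gadd45a (-1.25) and Acvr1 (-1.25). The motif was searched after the value of Rest had been seen, and a match of 9 letters is not a binding site. The part of Rest in these values was not tested.

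Notch pathway genes went both ways. Of 24 tested, 13 were higher in 57SCLC_cell, 6 were higher in 46LCNEC_cell and 5 were not called, with a median log2 fold change of 1.223. Among ligands, Dll1 (6.52), Dll4 (4.02), Jag2 (2.19) and the inhibitory ligand Dll3 (6.81) were higher in 57SCLC_cell, and Jag1 (-1.40) and the atypical ligand Dlk1 (-8.52) were higher in 46LCNEC_cell. Among receptors, Notch2 had 12.5, 10.9 and 10.9 normalized counts in the flasks and 10599, 10724 and 11171 in the dishes (-9.77, SE 0.10, adjusted p = 1.92e-09, limma), and Notch1 was also higher in the dishes (82.8 against 229, -1.62), while Notch3 (2.95) and Notch4 (4.76) were higher in the flasks. The fringe enzymes that modify the receptors, Mfng (8.41), Lfng (1.40) and Rfng (1.04), were all higher in 57SCLC_cell. Of the Hes and Hey genes, Hey1 (1010 ± 72.9 against 11.8 ± 1.31, 6.31), Hes6 (2.64) and Hes5 (5.06) were higher in 57SCLC_cell, and Hes1 was not called (605 against 1068). Maml2, a coactivator, was higher in 46LCNEC_cell (-5.79). The 2 lines thus differed in which receptor, ligand, Hes and Hey genes were on, with no common direction for the pathway.

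The Myc family showed opposite members in the 2 lines. Mycl had 91752, 89595 and 79997 normalized counts in the flasks and 334, 252 and 233 in the dishes, a 319-fold difference (log2 fold change 8.33, SE 0.14, adjusted p = 4.15e-09, limma). Myc had 93.8, 110 and 65.7 in the flasks and 6695, 6281 and 6801 in the dishes, 73.5-fold in the other direction (-6.21, SE 0.17, adjusted p = 3e-08, limma). Mycn was too low to test (6.05 and 0). Of the partners, the antagonists Mxd1 (1.95), Mxd3 (1.35), Mxi1 (1.2096) and Mxd4 (1.02) were higher in 57SCLC_cell, and Max, the common partner, was not called (1708 against 2211). In all, 5 of 11 tested members were higher in 57SCLC_cell and 1 was higher in 46LCNEC_cell.

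Mycl lay in the longest run of neighboring genes that differed strongly in 1 direction. This was noticed after the values were seen. When the 13801 tested protein-coding genes were ordered along the chromosomes, 2821 of them were called and reached 3 or more in size on the log2 scale, and 34 runs of 4 or more neighbors in the same direction were found. The longest held 11 genes, higher in 57SCLC_cell, and the next 8. It lay on chromosome 4 and was followed, after the single gene Bmp8a (394 ± 106 against 207 ± 31.9, log2 fold change 0.90), by a run of 6 in the same direction. From the first to the last gene, 17 of 18 tested genes on 1.25 Mb (GRCm39, chr4:122583068-123830793) passed a log2 fold change of 3, with a median of 4.09. All 11 genes of the longest run were also called under edgeR, DESeq2, every scaling tried and with any 1 sample left out, and 9 of them entered and were called with the filter of 50 normalized counts.

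Many genes of this stretch are used by all cells. Cap1, an actin-binding protein, had 134559 to 142336 normalized counts in the flasks and 10646 to 11202 in the dishes (log2 fold change 3.65, SE 0.09, adjusted p = 1.94e-08, limma). Akirin1, a nuclear cofactor, had 67960, 67161 and 64944 against 1300, 1139 and 1129 (5.81). Rragc, a GTPase of amino acid sensing, had 77839, 76490 and 76347 against 4021, 3586 and 3927 (4.32). The spread between flasks was small beside these differences. Ppt1, a lysosomal thioesterase (3.83), Trit1, a tRNA modifying enzyme (4.75), Pabpc4, a poly(A)-binding protein (3.81), Macf1, a cytoskeletal linker (3.95), and Ndufs5, a subunit of respiratory complex I (4.97), differed in the same direction.

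Tested genes on either side of the stretch were mostly not higher in 57SCLC_cell. On the near side Rlf, 1.82 Mb before Mycl, stood at 1982 ± 527 in the flasks against 3535 ± 350 in the dishes (-0.86), and on the far side Utp11, 1.70 Mb past Mycl, stood at 308 ± 16.2 against 932 ± 52.1 (-1.60), Inpp5b at 1326 ± 261 against 1491 ± 111 (-0.18) and Mtf1 at 1147 ± 111 against 1067 ± 111 (0.10). The same genes were also high against normal lung: in 16 of the 18 genes every 57SCLC_cell sample was above every Lung sample, and for the 15 genes whose Lung mean was 10 or more the median ratio of means was 36.3. That ratio was 36.8 in the 57SCLC allografts, 1.33 in 46LCNEC_cell and 1.14 in the 46LCNEC allografts. Gene copy number was not measured, and its part in these values was not tested. Cap1 overlaps Ppt1 and Ppie overlaps Bmp8b on opposite strands, and without a stated strand setting their reads cannot be told apart; Bmp8a and Bmp8b are close paralogs.

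**Figure D3:**
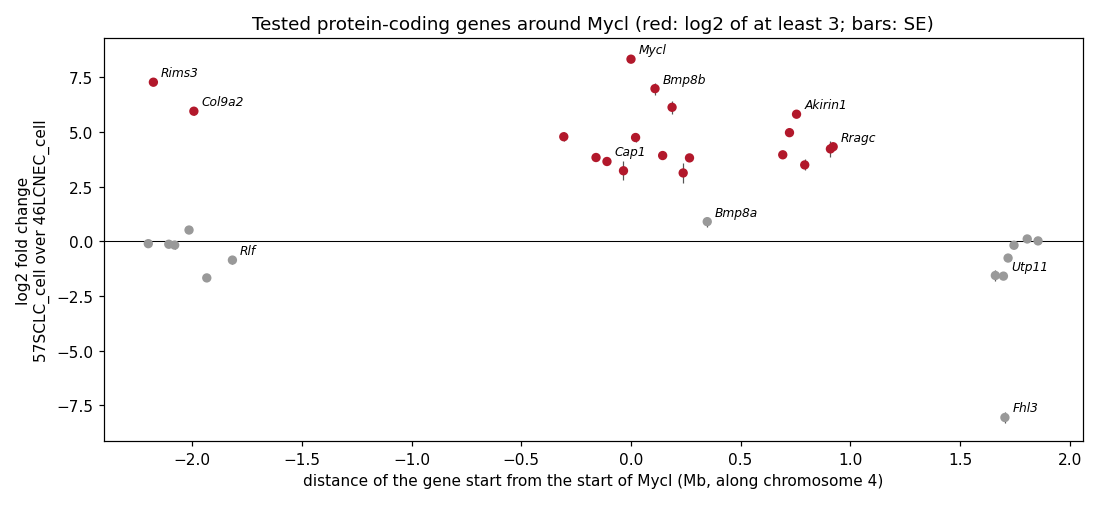
Log2 fold change of 57SCLC_cell over 46LCNEC_cell (y axis, bars: standard error) of tested protein-coding genes against the distance of their start from that of Mycl on chromosome 4 (x axis, Mb). Genes from 9530002B09Rik to Rragc sit at 3.12 to 8.33 apart from Bmp8a, and most genes outside sit near or below 0, with Rims3 (7.27) and Col9a2 (5.95) above and Fhl3 (-8.06) far below.

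Epithelial and mesenchymal genes separated the lines almost completely. Of 27 tested epithelial adhesion genes, 23 were higher in 57SCLC_cell, 2 were higher in 46LCNEC_cell and the median log2 fold change was 7.85. Of 28 tested mesenchymal genes, none was higher in 57SCLC_cell, 26 were higher in 46LCNEC_cell and the median was -7.50, or -7.46 with the gene that had no read in the flasks at its bound. Cdh1, the cadherin of epithelial junctions, had 21931, 21734 and 17754 normalized counts in the flasks and 161, 172 and 161 in the dishes (log2 fold change 6.94, SE 0.10, adjusted p = 3.45e-09, limma). The tight junction claudins Cldn3 (12.41), Cldn6 (10.76) and Cldn7 (8.98), Epcam (9.23), the keratins Krt8 (10.72), Krt18 (7.12) and Krt7 (7.46) and the epithelial splicing factor Esrp1 (11.38) were also higher in the flasks. The 2 exceptions were Krt19, at 14.7, 17.5 and 65.1 in the flasks and 6425, 7443 and 6839 in the dishes (-8.01), and the plakophilin Pkp1 (922 against 4394, -2.32), and the junction scaffold Tjp1 was not called (3206 against 3140.4).

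Of the mesenchymal genes, Vim, the intermediate filament vimentin, had 10.4, 16.3 and 18.8 normalized counts in the flasks and 101977, 101345 and 118251 in the dishes (log2 fold change -12.73, SE 0.19, adjusted p = 3.49e-09, limma). Fn1, fibronectin, had 6.55, 6.63 and 2.08 against 93873, 84522 and 78464 (-13.89), and the collagen crosslinker Lox had 4.36, 9.65 and 1.56 against 115447, 122588 and 125716 (-14.49). All 3 genes had almost no reads in suspension culture. The transcription factors that drive the mesenchymal state were all higher in 46LCNEC_cell, namely Zeb2 (-11.46), Twist1 (-10.37), Prrx1 (-9.68), Zeb1 (-8.52), Twist2 (-8.00), Snai2 (-6.92) and Snai1 (-5.31). Of the growth factors, Tgfb2 (-9.36) and Tgfb1 (-3.82) were higher there as well. N-cadherin, Cdh2, was not called (1884 against 2811). Fibroblast markers moved in the same direction as this list, as given above.

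Genes of attachment to the matrix were mostly higher in the adherent line. Of 33 tested integrin, laminin and focal adhesion genes, 27 were higher in 46LCNEC_cell and 1 was higher in 57SCLC_cell, with a median log2 fold change of -3.14. The fibronectin receptor subunit Itga5 had 3.27, 3.62 and 2.61 normalized counts in the flasks and 20915, 18213 and 20290 in the dishes (-12.22, SE 0.13, adjusted p = 1.92e-09, limma), and Itgb8 had 0.545, 0 and 0 against 921, 865 and 773 (-9.53). Itgb1, the common beta chain, was expressed in both (7376 ± 192 against 29765 ± 2095, -2.01). The exception was Itga4, a subunit of leukocyte type integrins, at 311, 313 and 191 in the flasks and 26.3, 35.3 and 29.2 in the dishes (3.10). Ptk2, the focal adhesion kinase, was not called (3009 against 3016).

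Hippo pathway genes were more often higher in 46LCNEC_cell than in 57SCLC_cell. Of 30 tested, 18 were higher in 46LCNEC_cell, 2 were higher in 57SCLC_cell and 10 were not called, with a median log2 fold change of -1.33. The coactivators Wwtr1, known as Taz, with 1.64, 0 and 1.56 normalized counts in the flasks and 7533, 7034 and 6829 in the dishes (-11.88), and Yap1, with 344, 384 and 616 against 6321, 5484 and 5812 (-3.75, SE 0.20, adjusted p = 8.93e-07, limma), were both higher in 46LCNEC_cell. Of their DNA-binding partners, Tead4 (-10.18), Tead2 (-4.07) and Tead1 (-1.10) were higher there and Tead3 was not called (641 against 972). Among the inhibitory kinases and their adaptors, Lats1 (3362 against 3135), Stk4, Sav1, Mob1a, Mob1b and Nf2 were not called. The kinase Stk3 was at -1.35.

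The target genes of the coactivators showed the widest gaps. Ccn2, a secreted matricellular protein, had no read in any flask and 12905, 13661 and 16801 normalized counts in the dishes, and was at least 8658-fold higher in 46LCNEC_cell. Its relative Ccn1 had 6.55, 4.82 and 2.08 against 44372, 32544 and 37651 (log2 fold change -12.85, SE 0.31, adjusted p = 1.43e-08, limma). Ankrd1 had 0, 0.603 and 0 against 1574, 1259 and 1502 (-10.26), and the receptor kinase Axl 1.64, 0.603 and 0.521 against 17785, 16918 and 17308 (-13.19). The exceptions were Nuak2, a kinase (2370 ± 261 against 886 ± 47.3, 1.41), and the repressor Vgll4 (1.24), both higher in 57SCLC_cell.

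Promoters of Ccn1 and Ankrd1 are shown because these 2 targets carry the TEAD motif GGAATG within 125 bases of the start. The stretches are built as for Pcsk1 and Scg2, and capitals mark the motif, which in Ccn1 reads as its reverse complement CATTCC. The Scg2 stretch printed above also holds GGAATG, left unmarked there, although Scg2 was higher in 57SCLC_cell (11.51).
Ccn1, chr3:145355716-145355865, minus strand: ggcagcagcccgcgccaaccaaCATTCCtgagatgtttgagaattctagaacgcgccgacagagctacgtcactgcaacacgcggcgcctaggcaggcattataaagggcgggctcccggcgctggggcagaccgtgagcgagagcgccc
Ankrd1, chr19:36097220-36097369, minus strand: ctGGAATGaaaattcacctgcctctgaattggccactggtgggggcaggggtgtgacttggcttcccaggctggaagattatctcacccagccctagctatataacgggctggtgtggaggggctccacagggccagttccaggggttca
The motif starts 103 bases before the gene start in Ccn1 and 123 in Ankrd1. The promoter table held 24 of the 31 listed Hippo genes, not Ccn2, and 15 of these 24 contained GGAATG on either strand within 300 bases, against 16.6% of all genes in the table. Among the 1742 tested genes with the motif, 28.8% were higher in 46LCNEC_cell and 25.3% were higher in 57SCLC_cell, against 22.1% and 23.9% of all tested genes with a promoter.

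Receptor tyrosine kinases differed in which receptors were expressed. Of 32 tested, 21 were higher in 46LCNEC_cell, 5 were higher in 57SCLC_cell and the median log2 fold change was -2.37. Met, the receptor of hepatocyte growth factor, had 0, 0.603 and 0 normalized counts in the flasks and 2520, 2474 and 2756 in the dishes (-11.11, SE 0.23, adjusted p = 8.94e-09, limma). Axl, Pdgfrb (-10.89), Fgfr1 (-9.65), the ephrin receptor Epha2 (-8.67) and Egfr (8.44 ± 2.62 against 1838 ± 76.2, -7.64) followed. The 5 higher in 57SCLC_cell were Erbb3 (3254 ± 300 against 18.8 ± 6.52, 7.41), Ntrk2 (6.37), Kit (3150 ± 224 against 49.999 ± 7.45, 5.96), Fgfr4 (5.44) and Ret (8207 ± 1652 against 790 ± 69.0, 3.36). The groups did not overlap for any of these receptors, which is no further result, since they were picked among called genes. Of all 16920 genes tested, 11600 had an adjusted p of at most 0.01 (limma). Fgfr2, Ephb2, Insr, Alk, Ror1 and Ror2 were not called.

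Cell cycle genes were the list with the lowest share of calls. Of 41 tested, 4 were higher in 57SCLC_cell, 5 were higher in 46LCNEC_cell and 32 were not called, so that 22.0% were called against 46.1% of all genes, and the median log2 fold change was 0.35. Mki67, a marker of proliferating cells, stood at 25922 ± 1933 in the flasks and 15985 ± 642 in the dishes (0.70), and Top2a at 10556 ± 356 against 8100 ± 340 (0.38), both below a 2-fold change. The G1 regulators were the exception. Ccnd1, cyclin D1, had 13.1, 12.7 and 24.5 normalized counts in the flasks and 11056, 8517 and 9046 in the dishes (-9.12, SE 0.24, adjusted p = 2.41e-08, limma). Its partner Cdk6 had 0.545, 1.206 and 0.521 against 4702, 4422 and 4206 (-11.32). Ccnd2 had no read in the flasks and 251, 193 and 182 in the dishes, at least 124.9-fold higher, and Ccnd3 was at -2.56, while the other partner, Cdk4, was not called (5886 against 4147). In the opposite direction, E2f2, an activating E2F factor, had 9333, 9070 and 6371 against 566, 457 and 440 (4.07). The other members called higher in 57SCLC_cell, Chek1, Ccne2 and Cdc25b, lay between 1.04 and 1.07, and the count of 4 was 2 without dish A of 46LCNEC_cell.

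CDK inhibitors and targets of p53 were mixed, with 6 of 23 tested genes higher in 57SCLC_cell and 10 higher in 46LCNEC_cell. Of all genes tested, 23.9% and 22.2% were called in these directions, so the count toward 57SCLC_cell lay near the background share. Cdkn1c, the inhibitor p57, had 1543, 1615 and 2082 normalized counts in the flasks and 31.0, 36.4 and 37.7 in the dishes (log2 fold change 5.59, SE 0.16, adjusted p = 2.8e-08, limma). Cdkn1a, the inhibitor p21, was also higher in the flasks (3417 ± 85.4 against 1116 ± 144, 1.62), as was Cdkn1b, p27 (1.04). The INK4 locus genes were higher in the dishes, Cdkn2a at 3154 ± 55.0 against 12860 ± 977 (-2.02) and its neighbor Cdkn2b at 283 against 3486 (-3.63). The death genes Pmaip1, known as Noxa, and Fas had no read in any flask and were at least 162-fold and at least 81.2-fold higher in the dishes.

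Genes for antigen presentation on MHC class I were mostly higher in 46LCNEC_cell. Of 15 tested, 8 were higher there, 2 were higher in 57SCLC_cell and the median log2 fold change was -1.05. The class I heavy chain gene H2-K1 had 786, 871 and 1042 normalized counts in the flasks and 3713, 4212 and 4090 in the dishes (-2.16, SE 0.11, adjusted p = 7.69e-07, limma), and Nlrc5, the activator of class I genes, had 8.73, 8.44 and 16.2 against 79.8, 61.8 and 56.9 (-2.51). H2-D1 (2534 ± 132 against 4206 ± 172, -0.73) and the peptide transporter Tap1 (-0.24) were not called. Psme1, an activator subunit of the proteasome, was the largest difference toward 57SCLC_cell (752 ± 61.3 against 211 ± 8.58, 1.83). Reads of class I genes can be shared among near-identical copies, and B2m, the light chain, is among the genes listed at 0 throughout.

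In the interferon and nucleic acid sensing list, 16 of 36 tested genes were higher in 46LCNEC_cell and 8 were higher in 57SCLC_cell, or 6 without flask C. The shares over all genes tested were 22.2% and 23.9%, so the count of 8 lay near the background share. Jak1, the kinase shared by type I and type II interferon receptors, had 36.5, 18.1 and 35.4 normalized counts in the flasks and 3592, 3481 and 3447 in the dishes (log2 fold change -6.89, SE 0.25, adjusted p = 1.04e-07, limma). The receptor genes Ifnar2 (-3.02), Ifngr1 (-2.65) and Ifngr2 (-2.86) were higher in the dishes too, while Ifnar1 (-0.91), Jak2 (-0.65) and Tyk2 (0.15) were not called. The DNA sensors split, with Cgas higher in the flasks (1140 ± 175 against 370 ± 16.8, 1.61) and its adaptor Sting1 higher in the dishes (83.5 ± 22.5 against 1242 ± 56.2, -3.91). Of the induced genes, Gbp2 had no read in the flasks and was at least 117-fold higher in the dishes, and Isg15 (-4.54) and Ifit2 (-3.18) were higher there, whereas Usp18 (124, 119 and 145 against 0.938, 6.62 and 1.54, 5.28) and Mx1 (4.19) were higher in the flasks.

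Glycolysis and cholesterol synthesis genes were mostly higher in 46LCNEC_cell, and both lists moved with flask C. Of 23 tested glycolysis genes, 17 were higher in 46LCNEC_cell and 1, Pfkp, was higher in 57SCLC_cell, with a median log2 fold change of -1.76, and the counts were 18 and 1 without flask C. The call of Pfkp, a phosphofructokinase, was lost in a test against a 2-fold change (log2 fold change 1.62, adjusted p = 0.0595, limma). Hk2, the inducible hexokinase, had 28.9, 18.1 and 317 normalized counts in the flasks and 2020, 1980 and 2146 in the dishes (-5.18, SE 0.92, adjusted p = 0.00109, limma), and -6.42 without flask C. Ldha, which makes lactate, had 3015, 3140 and 11893 against 19778, 20620 and 22699. Flask C was closer to the dishes than flasks A and B for both genes. Ldhb had 7.64, 15.7 and 11.98 against 328, 338 and 290 (-4.69), with no such gap.

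Of 23 tested cholesterol synthesis and uptake genes, 16 were higher in 46LCNEC_cell and 1 was higher in 57SCLC_cell, with a median of -1.19, and 17 and 1 without flask C. The differences were small, and only 10 genes were called with scaling to library size and 5 by a test against a change of 2-fold. Fdps, farnesyl diphosphate synthase, had 112, 118 and 216 normalized counts in the flasks and 642, 694 and 671 in the dishes (log2 fold change -2.23, SE 0.24, adjusted p = 5.88e-05, limma), and -2.53 without flask C. Tm7sf2, a sterol reductase, was the exception (1013 ± 23.5 against 243 ± 9.002, 2.06).

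Flask C itself was marked by these pathways. Against the mean of its sisters, the median log2 deviation was 0.76 over 21 glycolysis genes, with 6 of them over 2-fold above, and 0.57 over 23 cholesterol genes, whereas it was -0.03 over all 12979 genes, and no other list had a median beyond 0.26 in size. The 4 genes that lay highest in flask C among those with a mean of at least 200 normalized counts were Kctd16, a GABA-B receptor subunit (83.5, 82.0 and 805), Ak4, a mitochondrial adenylate kinase (139, 142 and 1179), Scd1, stearoyl-CoA desaturase (531, 493 and 3804), and Dhrs3, a retinal reductase (69.3, 73.0 and 489). The 4 lowest were Gstm2-ps1 (2220, 2251 and 310), the glutathione transferase Gstm1 (1472, 1522 and 273), the carnitine acyltransferase Cpt1a (862, 913 and 206) and the redox enzyme Srxn1 (1064, 1145 and 315). Each of these 8 genes was alike in flasks A and B. Some comparisons with the dishes depended on flask C: Ak4 was not called with flask C (-2.25, adjusted p = 0.0252, limma) and was called without it (-3.27), and Scd1 was called in both cases (-3.74 and -4.70).

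**Figure D4:**
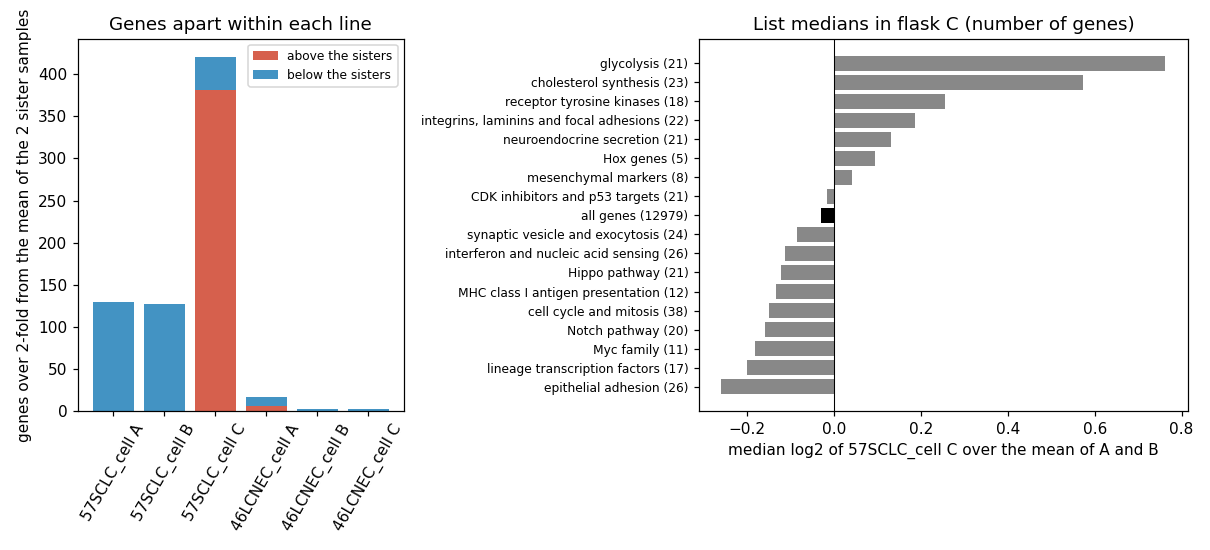
Left, number of genes over 2-fold above (red) or below (blue) the mean of the 2 sister samples, for each of the 6 samples (genes with a line mean of at least 50 normalized counts). Right, median log2 deviation of flask C of 57SCLC_cell from the mean of flasks A and B for each gene list (number of genes), with all genes in black at -0.03; glycolysis (0.76) and cholesterol synthesis (0.57) reach farthest.

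Positional identity genes also differed. Of 39 Hox genes, which record position along the body axis, 8 were tested. Hoxb3 (644 against 157, log2 fold change 1.99), Hoxb8 (5079 ± 547 against 1328 ± 80.6, 1.93), Hoxb4 (1.32) and Hoxb9 (1.31) were higher in 57SCLC_cell, and Hoxb7 was not called (0.40). Hoxa2 had no read in the flasks and 21.6, 26.5 and 23.1 normalized counts in the dishes, at least 14.2-fold higher, and Hoxa7 also had reads only in the dishes. All tested Hoxb genes were thus expressed in both lines.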

How the data were processed

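RNA was sequenced as paired-end reads of 150 bases in all samples. Per the study's methods, reads were aligned to GRCm39 with Rbowtie2, counted per gene with featureCounts (Rsubread) on GENCODE release 27. The deposited signal is a normalized count for 55359 genes. How it was normalized is not given in the sources used here, although the submitters' processing notes name DESeq2. Strand and multi-mapping settings are not given in the sources used here. All non-zero values (100% per sample) were whole multiples of a sample's smallest step, so reads were recovered. On these, edgeR called 4118 and 3682 genes.

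The 6 samples were grouped by their labels. Values were tested on log2(normalized count + 1) with limma 3.58.1 in R 4.3.3 (moderated test, two-sided, Benjamini-Hochberg over all genes tested). The comparison used genes with at least 10 normalized counts in 3 samples, and a call needed an adjusted p of at most 0.01 and a change of 2-fold. Alternatives used edgeR 4.0.16, DESeq2 1.42.0, other scalings, filters and pseudocounts, a fit of all 15 samples, a test against a 2-fold change, a replicate block and each sample left out. On simulated data for this comparison, 200 of 15978 genes were changed. Of these 200, limma, edgeR and DESeq2 each recovered 100%, and the test against a 2-fold change 81%. In the 6 samples themselves 46.1% of the genes tested were called with limma, and recovery at such a share was not tested.

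The gene lists and the comparison were chosen with earlier results of these data known. Genes were named by a rule: the deleted genes, stained proteins, sex-linked genes, the 2 largest called members of each list in its main direction and 1 in the other (mean of at least 50), the 6 largest per direction over all genes (at least 200 in every sample of the higher group) and the 4 highest and 4 lowest genes of the sample farthest from its group. Not every gene so named is reported here. Coordinates are from GENCODE release 39, which held 54749 (98.9%) of the gene identifiers. Promoters came from a RefSeq table of GRCm38.p6 and were placed in GRCm39 by exact match. Figures were drawn with matplotlib 3.10.9 in Python 3.11.15.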

Additional observations from a re-analysis of the deposited data

How the results depend on the processing

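The counts of genes higher in 57SCLC_cell and in 46LCNEC_cell, 4043 and 3756, stayed within 1.5 times of these values under each alternative run. They were 4118 and 3682 with edgeR, 4101 and 3689 with DESeq2, 2828 and 2602 when tested against a 2-fold change, 4756 and 4543 without a filter (27170 genes tested), and 3158 and 3010 with a filter of 50 normalized counts. With 1 sample left out they ranged from 3932 to 4147 and from 3608 to 4020. Scaling to library size moved the median log2 fold change of all genes to 0.24 and gave 4784 and 3169, so that 60.2% of calls were higher in 57SCLC_cell against 51.8%. The letters A to C do not pair the samples: deviations of same-letter samples correlated across genes at 0.092, -0.084 and -0.006, and with the letter as a replicate block the counts were 4041 and 3756. Among named genes, Dhrs3 and Gstm1, neither of them called, changed sign without flask C, over leave-one-out ranges of -0.0218 to 1.38 and -1.22 to 0.0134. The call of Rb1 was lost without any 1 of the dishes (log2 fold change 1.86 to 2.15) and in the test against a 2-fold change (adjusted p = 0.0747, limma), and that of Scd1 without dish A of 46LCNEC_cell (adjusted p = 0.0114, limma). Ak4 was called only without flask C among the samples left out. Srxn1 (adjusted p = 0.0101, limma) was called without any 1 of the flasks, with the replicate block, without a filter and with a pseudocount of 5. The call of Pfkp was lost in the test against a 2-fold change, and Rbl1 was called with scaling to library size. Of the counts over gene lists, 623 alternatives stayed within 1.5 times, 16 were lower and 7 higher. The cause of these changes was not tested. Flasks and dishes of 1 line each limit what the replicates can show, whatever the depth.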
